A study of Equus caballus with 19 samples.

Results

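The BCL2 family decides whether the outer membrane of mitochondria stays sealed. The survival members (BCL2, BCL2L1, MCL1 and BCL2A1) hold the pore-forming effectors BAX and BAK1 in check, and the BH3-only members (BBC3, PMAIP1, BCL2L11 and BID) release that check or activate the effectors directly. When BAX and BAK1 open the membrane, cytochrome c leaks out and caspases are activated. The balance is set largely by protein turnover and binding, so transcript levels give only one layer of it. In tendon, IL-1β is an inflammatory cytokine that acts through the IL1 receptor and NF-κB, a transcription factor known for switching on survival genes.

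The 10 family members named above were chosen by gene symbol from the 29196 gene names in each of the tables, and all 10 were present in both. The tables hold 19 RNA sequencing libraries of wild-type adult equine tenocytes, grown from the superficial digital flexor tendon of Thoroughbred horses post-mortem, 1 line per donor, and harvested after 14 days in bovine type I collagen gels. The first batch has 5 lines (called lines 1 to 5), each as an untreated control and with 1 nM IL-1β, giving 10 libraries. The second batch has 3 further lines (lines 6 to 8), each in 3 conditions (control, the same dose of IL-1β, and that dose together with the receptor antagonist IL1Ra at 100 ng/ml), giving 9 libraries. No library with IL1Ra alone was analysed here, so the antagonist was seen only on top of IL-1β. Each line supplied every condition of its batch, the cells were expanded in culture before they were seeded, and the gels are a model of tendon without its other cell types.

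Values are DESeq2-normalised counts, which allow libraries of one batch to be compared for the same gene but do not rank one gene against another, since they are not divided by gene length. Library sums ran from 43393903 to 49197980 normalised counts (first batch) and 24964149 to 34602014 (second batch). TNMD, a defining tendon marker, was at 0 in every library of the first batch and reached at most 1.00 normalised counts in the second, while COL1A1, COL1A2, DCN and LUM were abundant. The 8 tenocyte markers measured summed to 1054500 to 1820660 normalised counts in first-batch controls and to 507175 to 939367 with IL-1β. The markers did not move together. Means of COL1A1, COL1A2, FMOD, SCX and MKX were lower with IL-1β, that of COL1A1 going from 634135 to 190022. Means of LUM and DCN were higher, from 61554.5 to 116896 and from 61194.4 to 101598, each in 5 of 5 lines. The leukocyte markers CD3E and TYROBP were at 0 in all first-batch libraries, and the 10 leukocyte markers together stayed between 15.7 and 115 normalised counts there. The 5 endothelial markers summed to 17.5 to 91.0 normalised counts in the first batch. In the second batch these sums were 15.4 to 176 for leukocyte and 15.2 to 47.5 for endothelial markers. The tenocyte marker sums there overlapped between conditions. They were 266580 to 850256 in controls, 376754 to 582436 with IL-1β and 153036 to 862608 with IL-1β plus IL1Ra.

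All of the members except BCL2A1 passed the filter on low values, so 9 of 10 were tested in each batch with limma, with Benjamini-Hochberg adjustment over all genes tested. Below, a gene rose or fell where its adjusted p was under 0.05, and was DE where the absolute log2-fold change was also at least 1. Fold changes are on the scale of log2(normalised count + 1). In bulk RNA, fewer cells of a type and less RNA per cell cannot be told apart.

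In the first batch, 1 member of each functional class rose or fell with IL-1β, each by a small amount. That share of the tested members was near the share of all genes, given below. MCL1 and BAX, a survival gene and an effector, rose 1.37-fold and 1.59-fold, and the BH3-only gene BCL2L11 fell by 0.53 on the log2 scale. The log2-fold changes of BCL2 and PMAIP1 were larger, at 1.51 and −0.88, with wide differences between lines, and neither passed the test. With limma, 0 of the 9 tested members were DE, against 12.8% of all genes tested, and 3 of 9 had an adjusted p under 0.05, against 27.7%. At an unadjusted p under 0.05 there were 5 of 9 (all genes 39.5%), and in the fit blocked on tenocyte line 4 of 9 had an adjusted p under 0.05 (all genes 43.2%). The control and IL-1β libraries did not overlap for 2 members, MCL1 and BAX (all genes 19.5%). The median log2-fold change was −0.16 over the 9 tested members, 4 higher and 5 lower, beside −0.0034 over all genes tested.

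**Figure D1:**
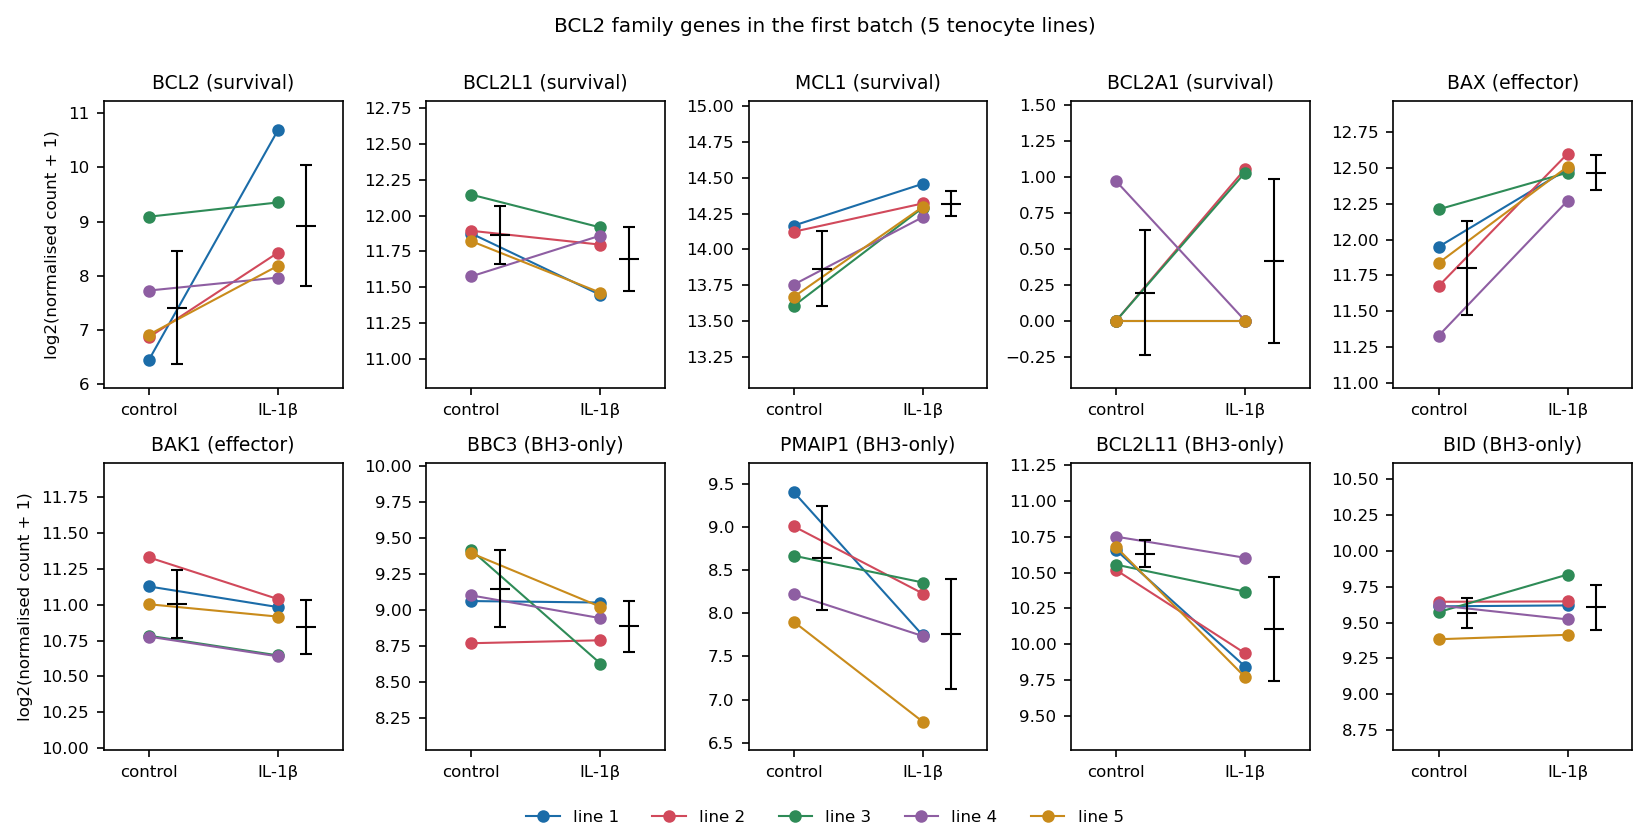
Log2(normalised count + 1) of the 10 members in the first batch, control against IL-1β. Coloured points joined by a line are the libraries of one tenocyte line, and the black bars give the mean and SD over 5 lines. Each panel has its own vertical range, MCL1 and BAX are higher with IL-1β in all 5 lines without overlap between the groups, and BCL2 spans a far wider range than the others.

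MCL1, a short-lived survival protein that binds BAK1 and most BH3-only proteins, was at 18384, 17847, 12477, 13825 and 13032 normalised counts in the controls of lines 1 to 5. With IL-1β it was at 22497, 20462, 20043, 19153 and 20128 normalised counts. Every IL-1β library was above every control, and the treated lines lay closer together than the controls (SD of 0.09 against 0.26 on the log2 scale). MCL1 rose by 0.45 ± 0.13 (log2-fold change ± SE, n = 5 lines, limma adjusted p = 0.0219, and 0.0101 with the line as a block). Without line 3, 4 or 5 the limma adjusted p was 0.0737, 0.0669 or 0.0997, at log2-fold changes of 0.40, 0.45 and 0.41.

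BCL2, the founding survival gene of the family, varied among the donor lines more than the other members. The controls were at 86.7, 116, 545, 211 and 120 normalised counts, and the IL-1β libraries of the same lines at 1652, 344, 654, 250 and 290. Line 1 went from the lowest control to the highest IL-1β value, an 18.8-fold difference, while lines 3 and 4 differed by 1.20-fold and 1.18-fold, and the groups overlapped. BCL2 was higher in 5 of 5 lines, by 1.51 ± 0.61 on the log2 scale (95% interval 0.17 to 2.85, limma adjusted p = 0.0877). Without line 1 the log2-fold change was 0.83 (limma adjusted p = 0.290). The spread among lines is not a feature of the treated cells alone: the SD of BCL2 on the log2 scale was 1.05 in controls and 1.12 with IL-1β, above that of 91.3% and 91.6% of the genes tested, whose median SD was 0.28 and 0.29.

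BCL2L1, which encodes Bcl-xL, was at 3753, 3804, 4529, 3053 and 3618 normalised counts in controls and at 2791, 3558, 3867, 3717 and 2821 with IL-1β. It was lower in lines 1, 2, 3 and 5 and higher in line 4, and the groups overlapped widely. The log2-fold change was −0.17 ± 0.13 (95% interval −0.45 to 0.12, limma adjusted p = 0.377). RefSeq lists 7 transcript models for this gene, and these gene-level values do not separate the protective long form from the short form that promotes death.

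BCL2A1, a survival gene known from blood cells as an NF-κB target, was listed at 0 in 4 of 5 controls and 3 of 5 IL-1β libraries of the first batch. The remaining libraries were at 0.96 (control, line 4), 1.08 and 1.05 normalised counts (IL-1β, lines 2 and 3), about the worth of 1 read each. In the second batch it was at 0.93 in the control of line 7 and 1.08 with IL-1β plus IL1Ra in line 8, and listed at 0 in the other libraries. No test was made for this gene. A listed 0 can also be a failed estimate in these tables, since EIF2S2, a translation initiation factor that all cells use, is listed at 0 in 3 of 10 and 6 of 9 libraries of the 2 batches.

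BAX, a pore-forming effector, was at 3954, 3270, 4738, 2572 and 3656 normalised counts in controls. With IL-1β it was at 5753, 6198, 5658, 4938 and 5823. All the IL-1β libraries exceeded all the controls, and the line with the lowest control, line 4, had the largest ratio, 1.92-fold. BAX rose by 0.67 ± 0.15 on the log2 scale (limma adjusted p = 0.00756), and its adjusted p stayed between 0.00740 and 0.0422 when each line was left out in turn.

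BAK1, the second effector and the one that MCL1 restrains, was at 2235, 2572, 1761, 1754 and 2051 normalised counts in controls and at 2023, 2103, 1602, 1594 and 1932 with IL-1β. It was slightly lower in 5 of 5 lines, but the differences between lines were larger than those within a line. The log2-fold change was −0.16 ± 0.13 (95% interval −0.45 to 0.13, limma adjusted p = 0.403). In the fit with the line as a block the SE was 0.06 (limma adjusted p = 0.0683). Thus BAX passed the test and BAK1 did not, and whether the responses of these genes differ was not tested.

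Among the BH3-only genes, BCL2L11 encodes BIM, which binds all survival members and can activate BAX and BAK1. Its controls were tightly grouped at 1612, 1464, 1503, 1721 and 1637 normalised counts, and the IL-1β libraries were at 918, 979, 1319, 1554 and 873. It was lower in 5 of 5 lines, strongly in lines 1, 2 and 5 and little in lines 3 and 4, so the groups overlapped. BCL2L11 fell by 0.53 ± 0.16 on the log2 scale (limma adjusted p = 0.0318, and 0.0195 with the line as a block). Without line 1, 2 or 5 the limma adjusted p was 0.113, 0.0911 or 0.135, at log2-fold changes of −0.46, −0.51 and −0.43. RefSeq lists 17 transcript models of BCL2L11, which these values sum.

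PMAIP1 encodes NOXA, a selective partner of MCL1. It was at 678, 514, 406, 298 and 238 normalised counts in controls and at 214, 299, 327, 212 and 106 with IL-1β. Every line was lower with IL-1β, from line 1 at 0.32-fold to line 3 at 0.81-fold, and the groups overlapped, with lines 4 and 5 low already in control. The log2-fold change was −0.88 ± 0.36 (95% interval −1.67 to −0.09, limma adjusted p = 0.0924). In the blocked fit, which compares libraries within a line, PMAIP1 fell by the same amount with an SE of 0.21 and a limma adjusted p of 0.0162.

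BBC3 encodes PUMA, which binds all survival members. It was at 534, 435, 682, 548 and 672 normalised counts in controls and at 530, 441, 394, 491 and 519 with IL-1β. Lines 1 and 2 hardly moved and line 3 was lowest relative to its control, with a log2-fold change over lines of −0.26 ± 0.15 (95% interval −0.60 to 0.08, limma adjusted p = 0.234). BID, which links death receptors to the mitochondrial arm once caspases cut it, was at 782, 800, 761, 786 and 667 normalised counts in controls and at 786, 801, 912, 734 and 682 with IL-1β. Its log2-fold change was 0.04 ± 0.11 (95% interval −0.20 to 0.28, limma adjusted p = 0.813), so changes beyond this interval were not seen for BID.

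The 5 cycling markers (MKI67, TOP2A, CCNB1, CDK1 and BUB1) each had a lower mean with IL-1β in the same libraries, with sums of 2965 to 15882 normalised counts in controls and 1381 to 5378 with IL-1β, and a median log2-fold change of −1.31. BUB1 was DE and lower (limma adjusted p = 0.0378) and the other 4 did not pass the test, while 3 of the 5 had an adjusted p under 0.05 with the line as a block. CCNB1 and CDK1 were each higher in 1 of 5 lines. The part of these shifts, and of the lower tenocyte marker sums, in the values of the family was not tested.

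The second batch asked whether IL1Ra changed the response to IL-1β. With 3 lines, IL-1β and control differed by amounts like those of the first batch for several members, but the lines disagreed in direction for most. With limma, 0 of 9 tested members were DE or had an adjusted p under 0.05 for IL-1β against control (all genes 0.341% by either rule). At an unadjusted p under 0.05 there were 2 of 9, BCL2 and PMAIP1 (all genes 11.4%), and with the line as a block 0 of 9 had an adjusted p under 0.05 (all genes 6.1%). The groups did not overlap for 1 member, PMAIP1 (all genes 16.4%). The median log2-fold change was −0.14 over the tested members and −0.0084 over all genes.

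For IL-1β plus IL1Ra against control, 0 of 9 members were DE or had an adjusted p under 0.05 (all genes 0.012%), 0 of 9 had an unadjusted p under 0.05 (all genes 5.67%), and 0 of 9 passed with the line as a block (all genes 0.251%). No member was without overlap between these groups (0 of 9, all genes 11.8%). For IL-1β against IL-1β plus IL1Ra, 0 of 9 members were DE or had an adjusted p under 0.05, as for all genes (0%). There, 1 of 9 had an unadjusted p under 0.05, PMAIP1 (all genes 2.78%), 0 of 9 passed with the line as a block (all genes 0.00599%), and 1 of 9, BCL2, did not overlap (all genes 6.47%). The comparisons with control share the same 3 control libraries, so each gene's values are given side by side.

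**Figure D2:**
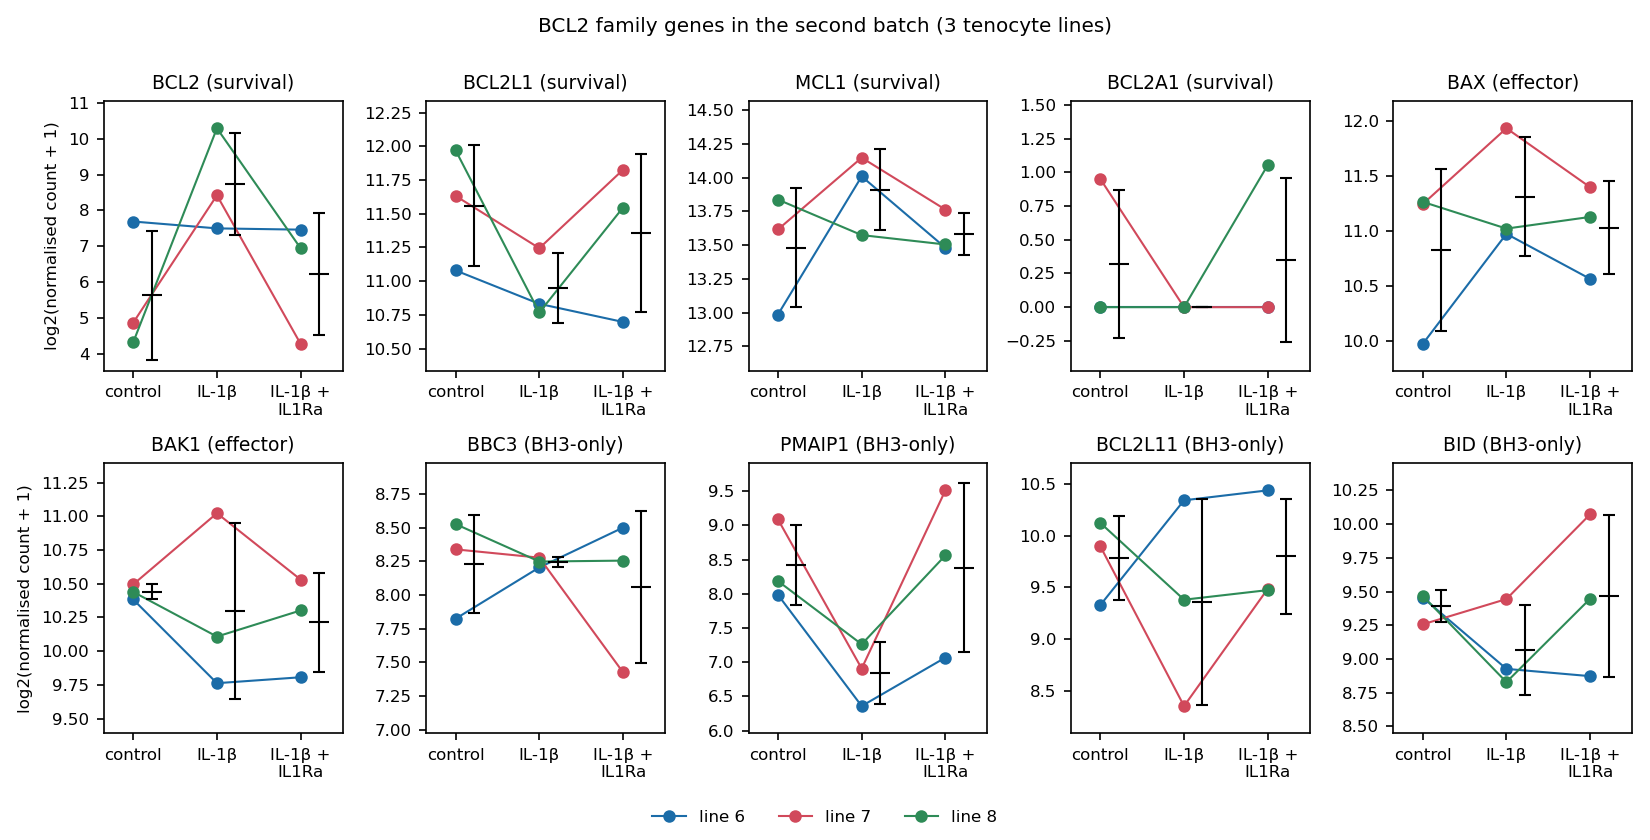
Log2(normalised count + 1) of the 10 members in the second batch in control, IL-1β and IL-1β plus IL1Ra. Points joined by a line are one tenocyte line, black bars give the mean and SD over 3 lines, and each panel has its own vertical range. PMAIP1 is lowest with IL-1β in all 3 lines, and BCL2 is highest with IL-1β in lines 7 and 8 but flat in line 6.

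PMAIP1 was at 252, 543 and 290 normalised counts in the controls of lines 6, 7 and 8, at 81.1, 119 and 152 with IL-1β, and at 133, 729 and 377 with IL-1β plus IL1Ra. Each line had its lowest value with IL-1β, and lines 7 and 8 were above their own control when IL1Ra was added, while line 6 stayed below it. Against control the log2-fold change with IL-1β was −1.58 ± 0.60 (n = 3 lines, limma adjusted p = 0.364, and 0.0588 with the line as a block). With IL-1β plus IL1Ra it was −0.04 ± 0.60 (95% interval −1.42 to 1.34). Between IL-1β and IL-1β plus IL1Ra it was −1.54 ± 0.60, lower with IL-1β alone in 3 of 3 lines (limma adjusted p = 1.00).

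BCL2 was at 205, 28.2 and 19.0 normalised counts in the controls, at 180, 342 and 1251 with IL-1β, and at 175, 18.4 and 122 with IL-1β plus IL1Ra. Line 6 had the highest control and hardly differed between conditions. Lines 7 and 8 began low and were 11.7-fold and 62.5-fold higher with IL-1β, and with IL1Ra line 7 was below its control and line 8 remained above it. The log2-fold change with IL-1β was 3.11 ± 1.17 (95% interval 0.43 to 5.79, limma adjusted p = 0.353), and it ran from 1.68 to 4.76 when each line was left out. With IL-1β plus IL1Ra it was 0.60 ± 1.17 against control, and IL-1β alone was 2.51 ± 1.17 above IL-1β plus IL1Ra (limma adjusted p = 1.00 for both). In mean normalised counts the order was IL-1β, IL-1β plus IL1Ra and control, at 591 ± 577, 105 ± 79.9 and 84.2 ± 105 (SD, n = 3 lines), and neither neighbouring pair in that order passed the test.

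BCL2L1 was at 2163, 3173 and 4013 normalised counts in controls, 1821, 2425 and 1742 with IL-1β, and 1659, 3630 and 2989 with IL-1β plus IL1Ra. It was lower with IL-1β than control in 3 of 3 lines, with line 8 furthest apart. The log2-fold change was −0.61 ± 0.34 (95% interval −1.39 to 0.16, limma adjusted p = 0.554), and −0.20 ± 0.34 with IL-1β plus IL1Ra.

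MCL1 was at 8110, 12557 and 14643 normalised counts in controls, 16497, 18162 and 12200 with IL-1β, and 11432, 13908 and 11624 with IL-1β plus IL1Ra. Lines 6 and 7 were higher with IL-1β and line 8 lower, so the groups overlapped. The log2-fold change was 0.43 ± 0.27 (95% interval −0.19 to 1.05, limma adjusted p = 0.630), close in size to that of the first batch but with a wider interval, and it was 0.10 ± 0.27 with IL-1β plus IL1Ra.

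BAX was at 1004, 2423 and 2458 normalised counts in controls, 2009, 3908 and 2077 with IL-1β, and 1513, 2695 and 2235 with IL-1β plus IL1Ra. As for MCL1, lines 6 and 7 were higher with IL-1β and line 8 lower. The log2-fold change was 0.48 ± 0.42 (limma adjusted p = 0.785), and 0.20 ± 0.42 with IL-1β plus IL1Ra. BAK1 was at 1335, 1442 and 1388 normalised counts in controls, 868, 2080 and 1103 with IL-1β, and 894, 1478 and 1262 with IL-1β plus IL1Ra. The controls of BAK1 were nearly equal, and the treated lines scattered around them in both directions, with log2-fold changes of −0.14 ± 0.33 and −0.23 ± 0.33.

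BCL2L11 was at 643, 953 and 1114 normalised counts in controls, 1296, 326 and 666 with IL-1β, and 1386, 717 and 710 with IL-1β plus IL1Ra. Line 6 was higher than its control in both treated conditions, and lines 7 and 8 were lower in both. The log2-fold change with IL-1β was −0.42 ± 0.50 (95% interval −1.57 to 0.73, limma adjusted p = 0.854), and it was 0.13 without line 7.

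BBC3 was at 226, 323 and 368 normalised counts in controls, 294, 309 and 303 with IL-1β, and 361, 171 and 305 with IL-1β plus IL1Ra. The IL-1β libraries of BBC3 lay inside the range of the controls (log2-fold change 0.01 ± 0.32, 95% interval −0.72 to 0.74, and −0.17 when the libraries were scaled to equal sums). BID was at 701, 610 and 707 normalised counts in controls, 485, 696 and 453 with IL-1β, and 468, 1076 and 697 with IL-1β plus IL1Ra. Lines 6 and 8 were lower with IL-1β and line 7 higher, a log2-fold change of −0.33 ± 0.31 (95% interval −1.04 to 0.39).

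**Figure D3:**
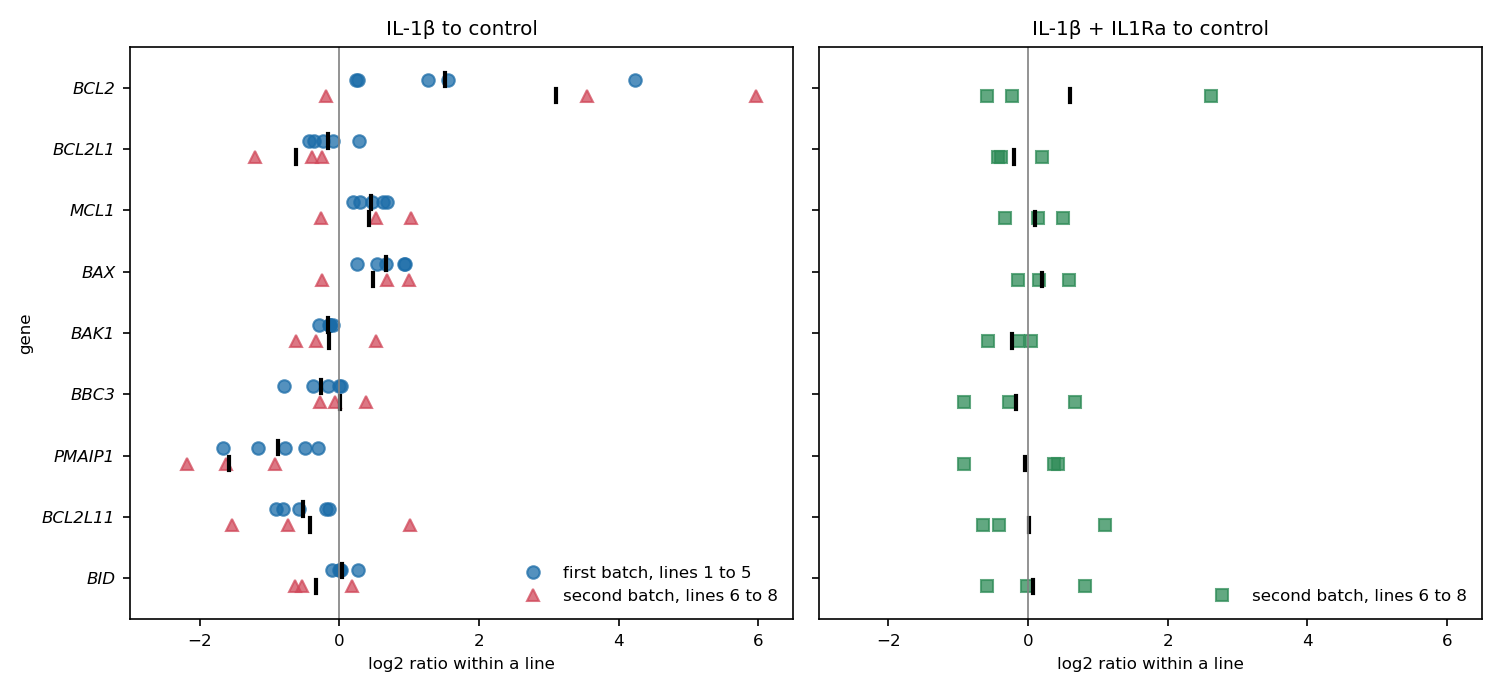
Log2 ratio of each treated library to the control of its own line for the 9 tested members, IL-1β on the left and IL-1β plus IL1Ra on the right. Circles are first-batch lines, triangles and squares second-batch lines, and black ticks the mean over the lines of a batch. With IL-1β, PMAIP1 lies below 0 in all 8 lines, and the ratio of BCL2 runs from −0.19 to 5.97.

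In the second batch the cycling markers summed to 5592 to 9524 normalised counts in controls, 378 to 5443 with IL-1β and 602 to 2528 with IL-1β plus IL1Ra, and their median log2-fold change was −2.19 and −2.17 against control. With limma 0 of the 5 markers passed the test in either comparison (4 of 5 at an unadjusted p under 0.05 in each, and 0 with the line as a block). Their part in the values of the family was not tested.

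Other genes of the cell death pathway are given from fixed lists. In the remainder of the BCL2 family, 10 of the 13 listed genes were tested in the first batch, 3 were DE and lower with IL-1β, 0 were DE and higher, and the median log2-fold change was 0.04. BOK, a BAX-like effector, was at 1567, 1770, 2823, 2103 and 2290 normalised counts in controls and at 372, 387, 216, 648 and 548 with IL-1β, without overlap. BOK fell by 2.35 ± 0.28 on the log2 scale (limma adjusted p = 0.000293). The change of BOK was larger in size than that of BAX or BAK1. In the second batch BOK was lower with IL-1β in 3 of 3 lines, but the groups overlapped. Its log2-fold change there was −1.28 ± 0.68 (limma adjusted p = 0.539).

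BMF, a BH3-only gene linked to cell detachment, fell by 1.35 ± 0.42 on the log2 scale (limma adjusted p = 0.0339, and 0.00692 with the line as a block). Without line 1, 4 or 5 the limma adjusted p of BMF was 0.0788, 0.0854 or 0.143. BNIP3, a hypoxia-induced mitochondrial protein, fell by 1.34 ± 0.41 (limma adjusted p = 0.0344, and 0.00636 with the line as a block). Without line 1, 2 or 5 the limma adjusted p of BNIP3 was 0.128, 0.0859 or 0.109. BCL2L2, the survival gene that encodes Bcl-w, rose by 0.36 ± 0.09 (limma adjusted p = 0.0147). BIK, a BH3-only gene, moved the other way from BMF: it was 1.27 ± 0.50 higher on the log2 scale in 5 of 5 lines (limma adjusted p = 0.0864, and 0.0119 with the line as a block). In the second batch BIK was at 579, 1181 and 363 normalised counts in controls, 1520, 3506 and 2045 with IL-1β, and 951, 1380 and 955 with IL-1β plus IL1Ra. There its log2-fold change with IL-1β was 1.82 ± 0.46 (limma adjusted p = 0.172, and 0.0126 with the line as a block). The second-batch value of BMF was −0.72 ± 0.91 (limma adjusted p = 0.863), lower in 2 of 3 lines. That of BNIP3 was 0.09 ± 0.60 (limma adjusted p = 0.98), with 1 line 3.34-fold higher and the other lines lower.

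Downstream of the family, 0 of 11 genes of the apoptosome and of mitochondrial release were DE in the first batch (limma, all genes 12.8%). Their median log2-fold change was 0.18. An adjusted p under 0.05 was reached by 3 of 11, a share near that of all genes (27.7%). At an unadjusted p under 0.05 there were also 3 (all genes 39.5%), and with the line as a block 0 were DE. ENDOG and AIFM1, which encode mitochondrial proteins that reach the nucleus in dying cells, rose by 0.94 ± 0.17 and 0.67 ± 0.11, and the caspase gene CASP6 rose by 0.63 ± 0.19 (limma adjusted p = 0.00291, 0.00203 and 0.0323). In the death receptor arm, 0 of 8 genes were DE or had an adjusted p under 0.05 (limma, all genes 12.8% and 27.7%). In that arm 1 gene had an unadjusted p under 0.05 (all genes 39.5%), and 1 had an adjusted p under 0.05 with the line as a block (all genes 43.2%). The largest change there was that of the initiator caspase CASP10, 0.61 ± 0.25 (limma adjusted p = 0.0918, and 0.0184 with the line as a block).

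Among inhibitors of apoptosis, 2 of the 5 genes tested in that batch were higher and DE. BIRC3, an ubiquitin ligase of TNF signalling, was at 840 to 8299 normalised counts in controls and 10527 to 64249 with IL-1β, a rise of 3.18 ± 0.72 on the log2 scale (limma adjusted p = 0.00855). Its relative BIRC2 rose by 1.01 ± 0.27 (limma adjusted p = 0.0177, and 0.00265 with the line as a block). Without line 3 or 5 the limma adjusted p of BIRC2 was 0.0682 or 0.0548. Without line 1, or with libraries scaled to equal sums, its log2-fold change was 0.93 or 0.99. In the second batch the log2-fold changes with IL-1β were 1.79 ± 1.53 for BIRC3 and 0.37 ± 0.50 for BIRC2. Both were higher in 3 of 3 lines with overlapping groups (limma adjusted p = 0.776 and 0.876).

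Of 8 NF-κB survival targets, which include BIRC3, 4 were DE and higher, 1 more rose and 2 fell, with a median log2-fold change of 2.01. TNFAIP3, which encodes the NF-κB inhibitor A20, rose by 4.39 ± 0.37, IER3 by 4.09 ± 0.65 and the mitochondrial superoxide dismutase SOD2 by 3.04 ± 0.25 (limma adjusted p = 4.49e-05, 0.00144 and 3.70e-05). TRAF2 rose by 0.98 ± 0.11, whereas GADD45B fell by 0.997 ± 0.22 and TRAF1 fell by 0.83 ± 0.17 (limma adjusted p = 0.000188, 0.00809 and 0.00510). GADD45B was thus just short of the size required for DE. BCL2A1, also known as an NF-κB target, was listed at or near 0 in all libraries. It was not tested, and a listed 0 can be a failed estimate, as given above.

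Of 11 listed genes of the DNA damage response, CDKN1A, which encodes the cell cycle inhibitor p21, was DE and rose by 1.70 ± 0.18 (limma adjusted p = 0.000193), RRM2B rose by 0.90 ± 0.19 and PHLDA3 fell by 0.90 ± 0.14 (limma adjusted p = 0.00558 and 0.00116). The median log2-fold change of the 11 was 0.16.

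Of 7 tested transcription factors known upstream of BH3-only genes, ATF3 was DE, with a rise of 1.29 ± 0.40 (limma adjusted p = 0.0350, and 0.0187 with the line as a block). Without line 1, 2, 3 or 4 the limma adjusted p of ATF3 was 0.0668, 0.0801, 0.0670 or 0.118. FOXO3, which drives BCL2L11 in many cells, was at 0.05 ± 0.12 (limma adjusted p = 0.808). Of the 3 genes of MCL1 turnover, 0 were DE (limma; 0 at an unadjusted p under 0.05 and 0 with the line as a block), and the largest value was −0.05 ± 0.14 for the ubiquitin ligase gene FBXW7 (95% interval −0.37 to 0.27).

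**Figure D4:**
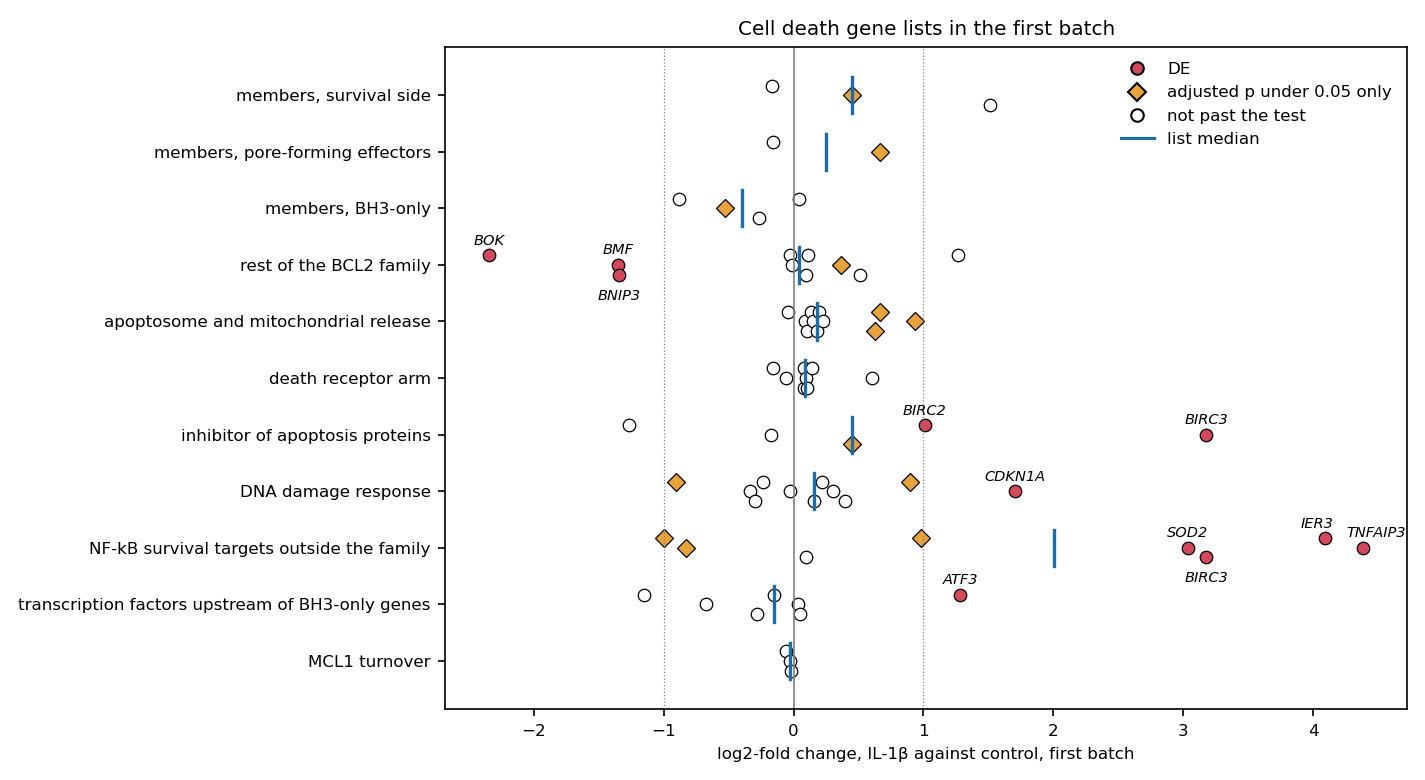
Log2-fold change between IL-1β and control libraries of the first batch for the members by class and for the other cell death lists. Each point is a gene tested with limma, red where DE, amber where only the adjusted p was under 0.05, and the blue bar is the list's median. The members lie between −0.88 and 1.51, and the NF-κB targets TNFAIP3, IER3, BIRC3 and SOD2 lie furthest to the right.

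In the second batch, 2 genes of these lists were DE with IL-1β against control. TNFAIP3 was at 206, 356 and 193 normalised counts in controls, 3539, 8949 and 8889 with IL-1β, and 804, 2706 and 2190 with IL-1β plus IL1Ra. It rose by 4.75 ± 0.54 with IL-1β (limma adjusted p = 0.0171), and without line 7 or 8 its adjusted p was 0.343 or 0.662. SOD2 was at 9965, 5050 and 2595 normalised counts in controls, 60650, 49943 and 56468 with IL-1β, and 71038, 83855 and 53976 with IL-1β plus IL1Ra.

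SOD2 rose by 3.45 ± 0.45 with IL-1β (limma adjusted p = 0.0297), and without line 7 or 8 its adjusted p was 0.426 or 0.635, and 0.0737 in a fit of these conditions alone. With IL1Ra, TNFAIP3 lay between control and IL-1β in each of the 3 lines, and SOD2 was above its IL-1β level in lines 6 and 7. With the line as a block, 5 of the 8 NF-κB targets were DE with IL-1β (TNFAIP3, SOD2, IER3 and TRAF2 higher, and GADD45B lower), and CDKN1A was DE with a limma adjusted p of 0.0240. With the block 2 of the NF-κB targets, TNFAIP3 and SOD2, were DE with IL-1β plus IL1Ra against control (limma adjusted p = 0.0267 for each).

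In lists without a DE gene, the second-batch genes furthest from 0 with IL-1β (log2-fold change against control) were −2.75 for BCL2L14, 0.68 for ENDOG, −0.75 for FAS, −2.15 for BIRC5, 1.50 for CDKN1A, −1.65 for E2F1 and −0.13 for FBXW7. BCL2L14 averaged 0.39 normalised counts with IL-1β and 15.5 in controls, so its value depends on the added count of 1. With IL-1β plus IL1Ra against control they were −0.93 for BOK, −0.33 for CYCS, 0.60 for CASP10, −2.30 for BIRC5, 0.86 for CDKN1A, 3.76 for SOD2, −2.03 for E2F1 and 0.16 for USP9X. For IL-1β against IL-1β plus IL1Ra they were −3.49 for BCL2L14, 0.76 for CASP6, −0.74 for FAS, −0.31 for XIAP, 0.64 for CDKN1A, 1.96 for TNFAIP3, −0.87 for TRIB3 and −0.18 for USP9X. None of these passed the test. BIRC5 and E2F1 are themselves active in cycling cells, and the part of the cycling markers in their values was not tested.

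Genes with a pattern like that of BCL2, the member with the largest log2-fold change in the first batch, were found by the root mean square difference of log2 values from the control mean over 10 libraries and 12495 genes. DAB2, an endocytic adaptor, was nearest at 0.62, followed by ADAMTS5, an aggrecan-cleaving protease, at 0.65 and MAB21L1 at 0.67. DAB2 rose by 1.22 over the lines, with log2 ratios of 2.60, 1.84, 0.46, 0.11 and 1.10 in lines 1 to 5, where BCL2 had 4.24, 1.56, 0.26, 0.24 and 1.27. Both genes were highest relative to control in line 1 and least so in line 4. In lines 3 and 4 MAB21L1 was also low, at 0.47 and 0.42, but ADAMTS5 was not, at 1.48 and 1.54. The points share the libraries and the controls, so the likeness is a description only.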

How the data were processed

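Cells, gels and libraries are described above. The authors quality-checked the reads with FastQC and MultiQC, assigned them to EquCab3.0 transcripts with Salmon, and deposited signal values as gene counts divided by size factors with DESeq2 1.36 in R 4.2.1, 1 table per batch. Tests were therefore made only within a batch. Whole reads were not recovered (60.3 to 75.3% and 61.0 to 77.5% of low values lay within 0.1 of a whole read, with 1 read worth 0.873 to 1.21 and 0.863 to 1.12 normalised counts), so no count model was fitted. No columns of per-sample values were left unmapped (0), and 0 pairs of libraries were identical.

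A gene was fitted if it reached 10 normalised counts in 5 or more libraries (first batch) or 3 or more (second batch), on log2(normalised count + 1) with limma 3.58.1 in R 4.3.3 (lmFit, eBayes with trend, no block), which left 14719 and 16705 genes. The second batch was fitted with its 3 conditions together. The script was tested on simulated data. Alternatives were other pseudocounts (0.5 and 5), no filter or a minimum of 50, no trend, scaling to equal sums or by the trimmed mean of M values (TMM), each line left out, 2 conditions only, and the line as a block. Each line is 1 donor and supplies every condition of its batch, so the block pairs libraries by donor: deviations from group means correlated at 0.35 to 0.58 (5 pairs) and 0.54 to 0.79 (9 pairs) within a line, and at −0.36 to 0.29 (20 pairs) and −0.62 to 0.25 (18 pairs) between lines. The members and lists were chosen with earlier results of these data known. The text names all members, each DE gene of a list or else its largest log2-fold change, and the 3 genes nearest to BCL2. BIK, BCL2L2, AIFM1, CASP6, RRM2B, PHLDA3, TRAF1, TRAF2, GADD45B and FOXO3 were named after their values were seen. Of the listed genes 2 are not reported here, and counts and medians of their lists leave them out. Roles were taken from general knowledge, and RefSeq (a newer horse assembly than that of the files) was used only for symbols, 10 of 10 matched, and transcript models.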

Additional observations from a re-analysis of the deposited data

Results flagged for a closer look

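Single libraries far from the others of their group were sought with Dixon's ratio (critical value 0.71 for groups of 5) in 27 groups of first-batch values, and 2 stood apart. At this critical value about 1 in 20 groups is flagged by chance, so chance alone can give such a number among 27 groups. The log2 ratio of BAK1 within line 2 was −0.29, further from 0 than in the other 4 lines (Dixon's ratio 0.717). BID in the control of line 5 was at 9.38 on the log2 scale, or 667 normalised counts, below the other controls (Dixon's ratio 0.724). Neither gene passed the test in the first batch.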

How the results depend on the processing

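Across the alternatives the number of DE members remained 0 in each comparison, except that 3 first-batch members count when the adjusted p alone is used. That number of 3 ran from 1 to 2 when each line was left out, with the low without line 5. The replicate block changed 1 member's call, PMAIP1 in the first batch (log2-fold change −0.88, limma adjusted p = 0.0162), and no other member's. Of the log2-fold changes of members, 416 recomputed values kept direction and side of the threshold, 18 changed sign, 6 no longer passed (MCL1 and BCL2L11, as given above) and 1 newly passed. None of the values that changed sign passed the test under any setting, and the cause was not tested. Scaling to equal sums put the median of all genes at −0.19, −0.07 and −0.11 in the second-batch comparisons (IL-1β against control, IL-1β plus IL1Ra against control, IL-1β against IL-1β plus IL1Ra). With it BBC3 was −0.17 in the first of these, BCL2L11 −0.0652 and BID −0.0108 in the second, and BAK1 −0.0167 in the third, and with TMM BBC3 was −0.0014 and BCL2L11 −0.0054. With each line left out, BID ran from −0.0144 to 0.0755 in the first batch. For IL-1β against control in the second batch BAK1 ran from −0.48 to 0.10, BBC3 from −0.17 to 0.16 and BCL2L11 from −1.14 to 0.13. For IL-1β plus IL1Ra against control BCL2 ran from −0.41 to 1.20, MCL1 from −0.0928 to 0.32, BBC3 from −0.59 to 0.20, PMAIP1 from −0.27 to 0.40, BCL2L11 from −0.53 to 0.35 and BID from −0.30 to 0.40. For IL-1β against IL-1β plus IL1Ra BAK1 ran from −0.12 to 0.22 and BBC3 from −0.15 to 0.42. The second batch has 3 lines and lower sums of counts, and a line left out there leaves 2 libraries per condition. BCL2A1 was listed at or near 0 in both batches, and whether depth limits it was not tested.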

Other observations

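The ratio of 2 members within a library hardly depends on library scaling, so 8 pairs were followed from control to treated library within each line, as a description with no test. BCL2L1 over BAX was lower with IL-1β in 5 of 5 lines of the first batch, with a mean log2 change of −0.83 ± 0.25 (SD) and changes from −1.03 in line 5 to −0.48 in line 3. In the second batch it was lower in 3 of 3 lines, with changes of −1.25, −1.08 and −0.96 in lines 6, 7 and 8, and with IL-1β plus IL1Ra the changes were −0.97, 0.04 and −0.29. MCL1 over BAX changed less, by −0.21 ± 0.44 over lines 1 to 5 and by −0.05 ± 0.09 over lines 6 to 8.

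MCL1 over PMAIP1 was higher with IL-1β in 5 of 5 and 3 of 3 lines, with mean log2 changes of 1.33 ± 0.49 and 2.01 ± 1.17 (SD), and with IL-1β plus IL1Ra the changes in lines 6, 7 and 8 were 1.41, −0.28 and −0.71. MCL1 over BCL2L11 was higher with IL-1β in 5 of 5 and 3 of 3 lines, by 0.98 ± 0.36 and 0.86 ± 1.08, although in line 6 the change was 0.01. MCL1 over BAK1 was higher in 5 of 5 lines of the first batch, by 0.61 ± 0.16, and BAX over BAK1 by 0.83 ± 0.33. In lines 6, 7 and 8 MCL1 over BAK1 changed by 1.65, 0.0046 and 0.07, and BAX over BAK1 by 1.62, 0.16 and 0.09, so lines 7 and 8 hardly changed. The pairs with BCL2 were the most scattered: BCL2 over BAX changed by −0.70 in line 4 and by 3.70 in line 1, with a mean of 0.85 ± 1.68, and BCL2 over BCL2L11 by 0.39 in line 4 and 5.05 in line 1. In lines 6, 7 and 8 BCL2 over BAX changed by −1.19, 2.86 and 6.21, and BCL2 over BCL2L11 by −1.20, 5.09 and 6.71.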
